A study of Schizosaccharomyces pombe with 261 samples.

Results

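Fission yeast (Schizosaccharomyces pombe) of the wild type (WT) was moved from 30 °C to 37.5 °C, and the polyadenylated RNA of cells heated for 5 min was compared with that of unheated cells in the libraries named RNA2. The 6 libraries, of 261 samples in the series, were taken by their titles: 3 at 5 min and 3 at 0 min, paired by the replicate number in the title. The cells of both groups share one genotype: mating type h+, the alleles ade6-DN/N, leu1-32 and ura4-DS/E, and 2 reporters in the repeats of centromere 1, imr1L::ura4+ and otr1R::ade6+. They grew in YES, a rich medium, to mid-log phase, were shaken in a water bath, and gave RNA by hot phenol for libraries of the KAPA mRNA HyperPrep kit. The 3 RNA2 libraries at 2.5 min give levels only, because a change at 2.5 min would share the unheated libraries. A second set named RNA1, with the same genotype and times in 6 other libraries, was used for the one comparison between sets.

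Heat unfolds proteins, and 2 transcription systems answer it in this yeast. The heat shock factor Hsf1 drives genes of chaperones, the proteins that refold or dissolve damaged proteins. The MAP kinase Sty1 is activated by heat and other stresses and acts through Atf1 and Pcr1, bZIP factors that bind the cyclic AMP response element (CRE), on a wide set of stress genes, among them genes of the phosphatases that switch Sty1 off. In growing cells much of transcription serves the making of ribosomes, and genes of ribosome assembly are repressed by many stresses.

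Total counts in genes ran from 8714493 to 10228142 in the 6 libraries, and levels are given as CPM, counts scaled to a common library size by TMM, a trimmed mean, per 1000000. Reads that mapped to several places were 7.25 to 12.2% of reads and those called ambiguous between genes 0.930 to 1.17%. Of 679 genes that lie wholly under one gene of the other strand, 283 still had a mean of at least 10 CPM, which counting without regard to strand would leave ambiguous. Such overlap is not repeated for every gene below. For instance, other-strand genes cover wis2 and hsp10 wholly, ubx3 by 93.4%, gas2 by 89.0%, trk1 by 86.3% and sty1 by 80.9%. Of the mating-type markers, map2, the P-factor gene of h+ cells, had 25 to 42 counts and map3, their M-factor receptor gene, 89 to 176. Among 5 markers of h- cells, mfm1, mfm2, mfm3 and mam2 had 2 to 67 counts and mam1, the M-factor transporter gene, 369 to 524, so the counts do not follow the label in each marker. The genes ura4 (79.8, 82.8 and 84.4 CPM at 0 min) and ade6 did not pass the test, with log2 changes of -0.02 ± 0.07 and 0.04 ± 0.06. Both were counted at their own positions on chromosome III. Reads of the alleles there and of the reporters in centromere 1 cannot be told apart, so these values do not measure the reporters. The labels do not say whether the 3 replicates were separate cultures, so the spread behind the p-values may be technical. That spread was estimated over all 39 mRNA-seq libraries in one fit, after a term for the replicate number (the replicate block).

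After 5 min, many chaperone genes, the factor genes atf1 and pcr1 and the phosphatase gene pyp2 had risen, the last by 4.53 on the log2 scale, while most genes of ribosome assembly had fallen. Of 6172 genes tested, 2434 (39.4%) changed at an adjusted p under 0.05 (edgeR's quasi-likelihood test with Benjamini-Hochberg adjustment): 1282 rose (20.8%) and 1152 fell (18.7%). The counts of each gene list below are to be read against these shares, and counts near them say nothing particular about a list. All the lists were written with earlier results of these data known. Large changes were mostly upward. At least 2-fold, 227 rose (3.68%) and 93 fell (1.51%), and at least 4-fold, 76 rose (1.23%) and 7 fell (0.113%). The levels did not overlap between the groups for 1106 genes that were higher (17.9%) and 1056 that were lower (17.1%). With library totals in place of TMM, the median change of all tested genes moved from -0.00 to -0.11 on the log2 scale and the split became 759 higher and 1754 lower, so directions here are relative to the TMM-scaled median. Without the replicate block 1678 genes changed, 873 up and 805 down.

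**Figure D1:**
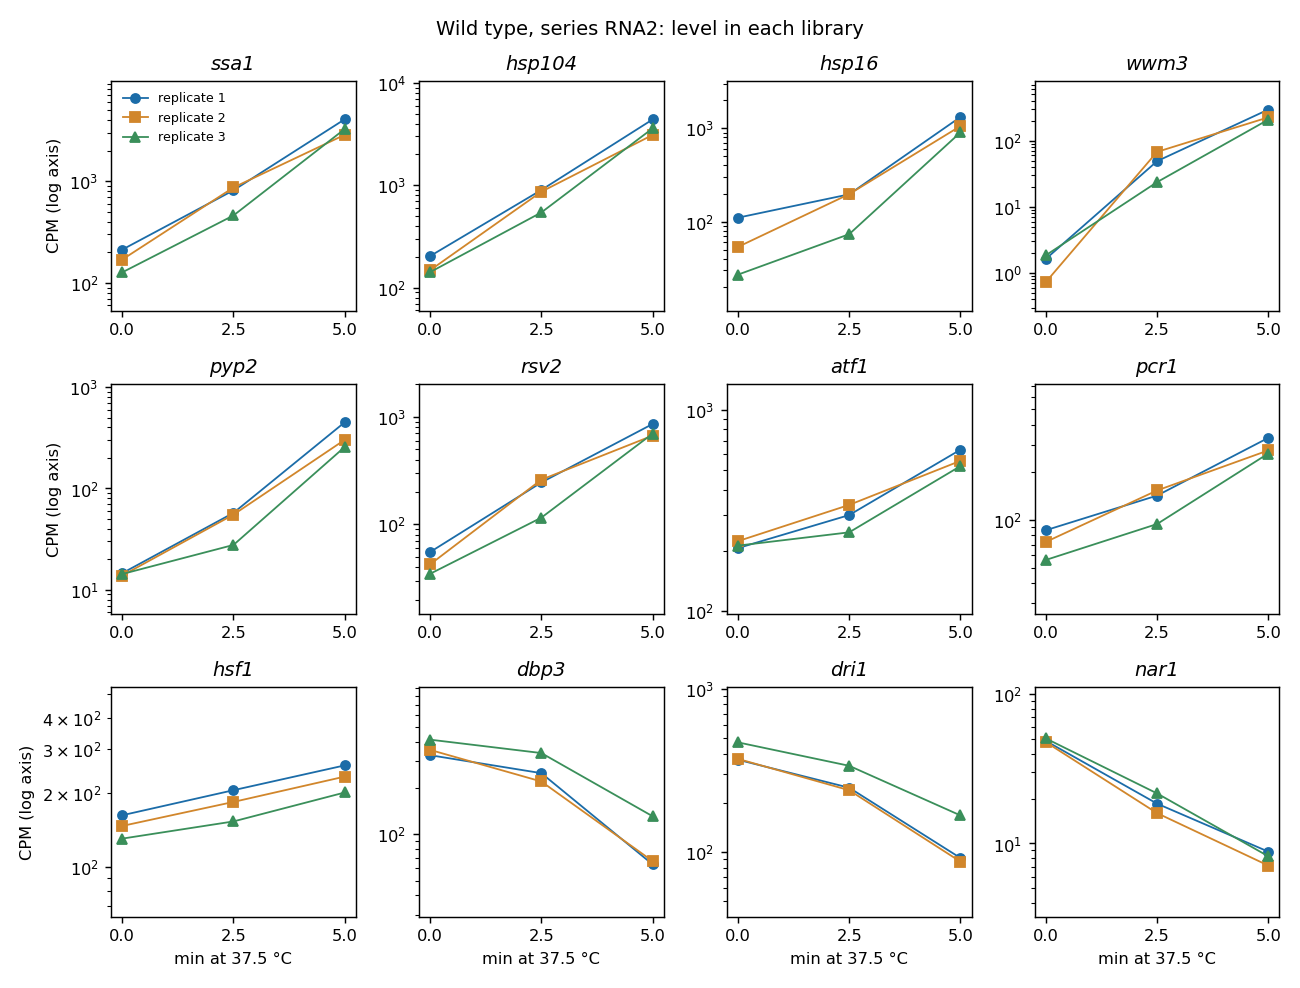
Level of 12 genes in each WT library of RNA2, in CPM on a log axis, against min at 37.5 °C; points are libraries and lines join libraries with the same replicate number. The first 9 genes, from ssa1 to hsf1, were higher at 5 min than at 0 min in all 3 pairs, while dbp3, dri1 and nar1 were lower in all 3. All but atf1, pcr1 and hsf1 are of the 12 largest rises or falls, taken only where the groups did not overlap.

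3 chaperone genes, hsp104, ssa1 and hsp16, were among the 12 largest rises of genes with a mean of at least 10 CPM. The rule for the 12 largest rises and falls takes only genes whose groups did not overlap, so their non-overlap is by choice. ssa1, which codes for a cytosolic Hsp70 that binds unfolded chains, lies at chromosome I, 2295580 to 2297981, minus strand (build ASM294v2, as are all positions here). It had 212, 169.6 and 127 CPM in the unheated replicates 1, 2 and 3, 814, 868 and 460.5 CPM at 2.5 min and 4069.8, 2863 and 3262 CPM at 5 min. Every heated library was above every unheated one, and the log2 change was 4.36 ± 0.17 (SE; edgeR adjusted p = 1.65e-17). Its promoter holds a match to the heat shock element GAANNTTCNNGAA, searched on both strands in the 250 bases before the annotated gene start of each coding gene, and the stretch is printed with the match in capitals.
ssa1, chrI:2297988-2298044, minus strand: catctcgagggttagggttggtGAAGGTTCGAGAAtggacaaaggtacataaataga
Only 14 of the 4972 promoters of tested coding genes held a match (0.282%), so this spelling, which asks for 3 perfect units, finds few genes; the other riser of at least 2-fold with one was SPBC1683.04, annotated as a glycosyl hydrolase of family 3 (log2 change 1.45).

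hsp104, at chromosome II, 3612265 to 3615320, minus strand, codes for the disaggregase that pulls proteins out of aggregates. It rose from 203, 148 and 142 CPM to 4385, 3097 and 3589 CPM, and stood at 899, 864 and 542 CPM at 2.5 min. hsp16, a small heat shock protein gene at chromosome II, 2660139 to 2660992, minus strand, varied among the unheated libraries. Its unheated libraries held 110.4, 53.7 and 27.1 CPM and its heated ones 1323, 1058 and 905 CPM, so replicate 3 began lowest and the groups still lay far apart. The log2 changes were 4.50 ± 0.16 for hsp104 and 4.28 ± 0.26 for hsp16 (edgeR adjusted p = 2.76e-18 and 2.20e-13). All 5 genes of the list of Hsp104, Hsp78 and small heat shock proteins rose, with a median log2 change of 2.69, against -0.00 over all genes tested. The mitochondrial disaggregase hsp78 rose by 2.69 ± 0.09 and hsp9 by 2.39 ± 0.24. The hsp9 value in unheated replicate 1, 506 CPM, was well above the 172 and 103 CPM of the others.

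Helpers of Hsp70 rose less. Of 15 tested genes of Hsp70s and their partners, 10 rose and 1 fell (median 0.39). psi1, a J-domain protein that stimulates Hsp70, went from 269, 217 and 204 CPM to 1298, 1076 and 1025 CPM (log2 change 2.30 ± 0.08). fes1, a nucleotide exchange factor, went from 260.4, 244 and 217 to 869.8, 830.4 and 813 CPM (1.80 ± 0.09). mas5, another J-domain gene that was already abundant, rose by 0.89 ± 0.07 from a mean of 1515 CPM. The constitutive Hsp70 gene ssa2 began at 6057 CPM and rose by 0.53. As ssa1 and ssa2 are close paralogs, reads that mapped to both would be among those set apart as mapping to several places. Such reads were counted for neither gene, and how many were lost is not known. The member that fell was xdj1 (-0.22), a J-domain gene.

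Of the list of Hsp90 and its cofactors, 6 of 9 genes were up and none down (median 0.64). Among the 9, ppt1 is annotated as a polyprenyltransferase and passed in neither direction (-0.02). sti1, the adaptor between Hsp70 and Hsp90, rose from 978, 826 and 780.1 to 2221, 1946 and 1965 CPM (1.25 ± 0.08). aha1, an activator of the Hsp90 ATPase, rose by 1.14 ± 0.09, the cyclophilin wis2 by 0.99 ± 0.07 and the p23 gene wos2 by 0.84 ± 0.06. For all 4 the groups did not overlap. Of 16 chaperonin and prefoldin genes 4 rose: the mitochondrial pair mcp60 (0.65 ± 0.09) and hsp10 (0.32 ± 0.07) in groups that did not overlap, and cct4 and pfd2 by 0.12 and 0.16 in groups that did. The calls of cct4 and pfd2 were lost under most alternatives.

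In the endoplasmic reticulum, bip1, its Hsp70, rose from 2549.6, 2386 and 2703 to 4872, 4077 and 4794 CPM (0.85 ± 0.09), the oxidoreductin ero11 rose by 0.50 ± 0.05 and calnexin, cnx1, by 0.30 ± 0.08. Over that list 6 of 15 rose and 3 fell (median 0.10), and the disulfide isomerase pdi4 fell by 0.54 ± 0.12. Genes of ubiquitin-dependent quality control rose in 12 of 13 cases by modest amounts (median 0.29), led by the nuclear ligase san1 (0.98 ± 0.06), with ubx3 (0.53 ± 0.05), hul5 (0.53 ± 0.06) and the segregase cdc48 (0.50 ± 0.07) behind it. The one that fell was ubi4, the polyubiquitin gene (-0.26). Proteasome subunits rose together and little: 29 of 32 passed upward and none downward, between 0.15 and 0.41, with a median of 0.25. rpn11, the deubiquitinase of the lid, rose from 355, 327 and 347 to 472, 436 and 461 CPM. With library totals 15 of the 32 still passed upward, so part of this count rests on the scaling.

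**Figure D2:**
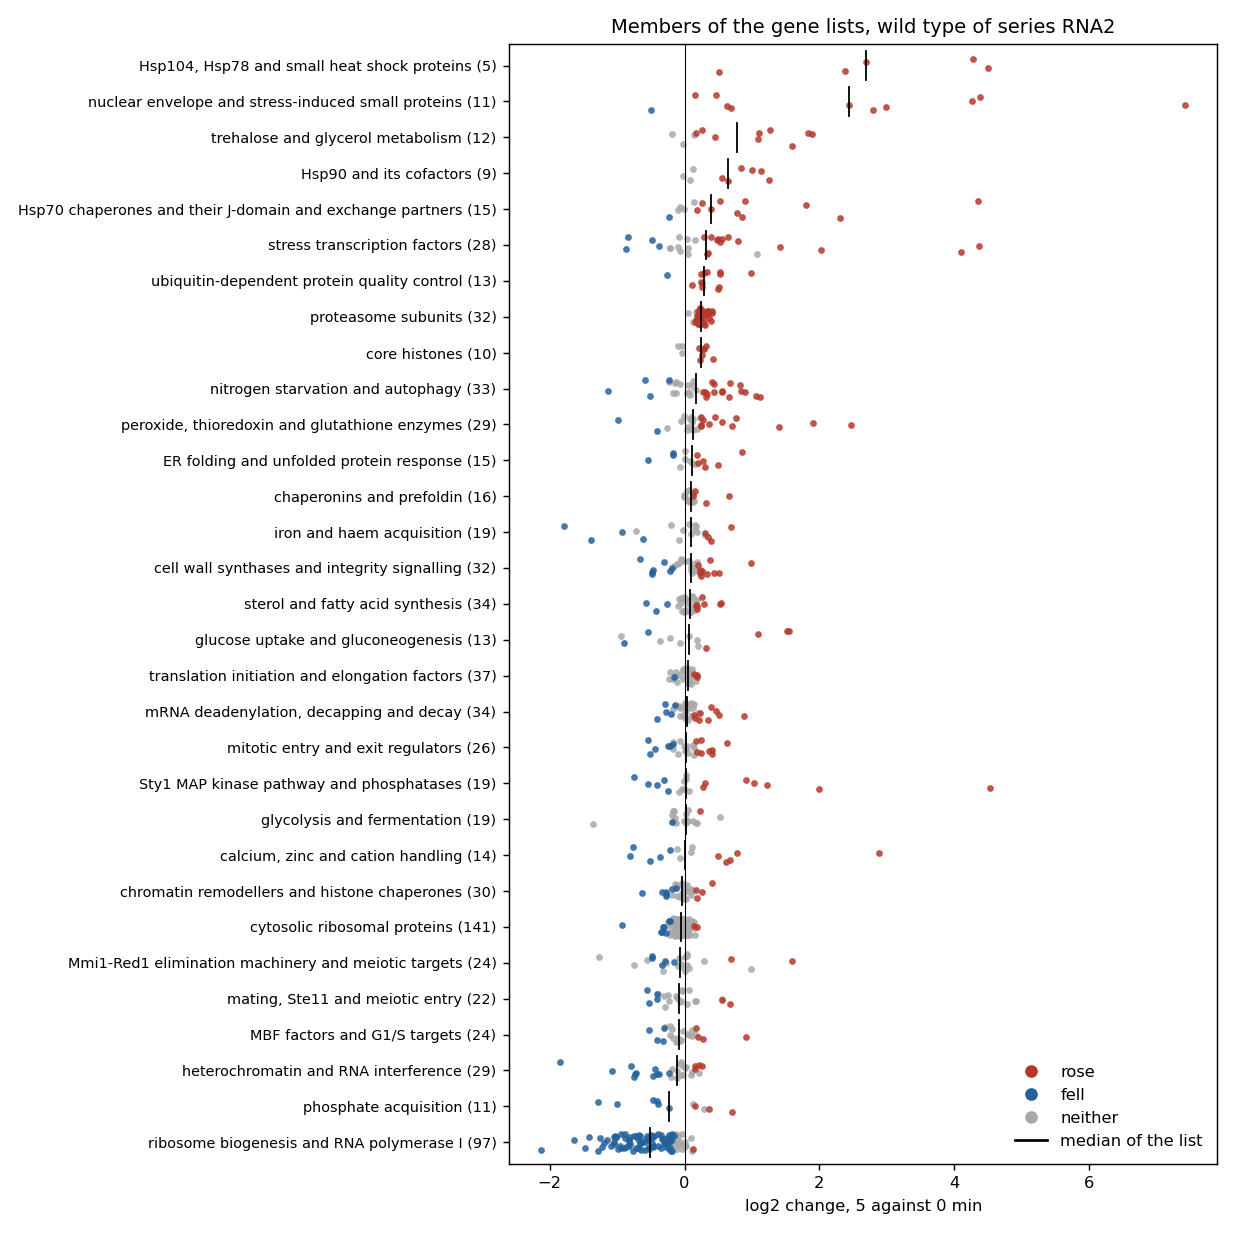
Log2 change at 5 against 0 min for the tested members of 31 gene lists; each point is a gene, coloured by whether it rose or fell at an adjusted p under 0.05, the black mark is the list's median and the number of members is in brackets. Hsp104, Hsp78 and the small heat shock proteins stand highest (median 2.69) and ribosome biogenesis lowest (median -0.51).

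The largest rise of all was that of wwm3, a gene of little-known function at chromosome II, 202257 to 203623, plus strand. It was nearly silent in unheated cells, at 1.63, 0.728 and 1.85 CPM, and reached 49.1, 67.8 and 23.6 CPM at 2.5 min and 296, 226 and 208 CPM at 5 min (log2 change 7.43 ± 0.31; edgeR adjusted p = 9.46e-17). smp4, another gene of little-known function, rose from 10.8, 15.2 and 11.2 to 278, 295 and 198 CPM (4.38 ± 0.14). The unheated libraries of both genes were tight beside the change. rtc3, of the SBDS family, rose from 78.7, 78.1 and 58.2 to 1552, 1569 and 1022 CPM (4.26 ± 0.13), slt1 from 185, 143 and 110.2 to 1524, 1448 and 1337 CPM (3.33 ± 0.12) and ish1, a nuclear envelope gene, from 56.8, 52.2 and 41.7 to 604, 432 and 230.5 CPM (2.99 ± 0.14). In rtc3 and ish1 the heated replicate 3 was the lowest of the 3. The list of nuclear envelope and stress-induced small proteins had 10 of 11 members up and 1 down, with a median of 2.44. Like the other lists, it was written with these genes' response in earlier results known.

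3 genes with no name were among the 12 largest rises. SPBC19C7.04c rose from 29.5, 21.2 and 17.5 to 328, 202 and 465 CPM (3.81 ± 0.22), with replicate 3 highest at 5 min and lowest at 0 min. SPBC11C11.06c went from 56.8, 47.3 and 39.7 to 522, 492 and 268 CPM (3.11 ± 0.14). SPBC1105.13c rose by 3.08 ± 0.15 to 64.5, 53.9 and 45.2 CPM, but 100% of it lies under rsv2 on the other strand, which rose too, so its value is uncertain.

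The CRE core TGACGT, searched on both strands in the same 250 bases, was found in 227 of 4972 promoters of tested coding genes (4.57%) and in 4.55% of all 5104 coding promoters. It was in 10 of the 42 coding genes that rose at least 4-fold (23.8%, 95% Wilson interval 13.5 to 38.5%) and in 18 of the 91 that rose 2-fold to 4-fold (19.8%, 12.9 to 29.1%). Among genes that fell at least 2-fold it was in 2 of 71 (2.82%, 0.776 to 9.70%), and among those called in neither direction in 3.71%. The 10 of the 42 include 1 gene at a mean of only 0.263 CPM. They also include SPBC1105.13c, whose 250 bases lie inside rsv2 and whose rise is uncertain. Stretches from 5 risers are shown because they carry the core in single, palindromic and spaced forms; capitals mark every match, and in TGACGTCA the matches of the 2 strands overlap.
wwm3, chrII:202187-202236, plus strand: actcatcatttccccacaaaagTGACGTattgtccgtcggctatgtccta
smp4, chrIII:955137-955170, plus strand: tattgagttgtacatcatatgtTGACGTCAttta
atf21, chrII:1722136-1722187, plus strand: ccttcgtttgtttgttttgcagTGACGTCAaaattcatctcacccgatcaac
atf1, chrII:1546143-1546193, plus strand: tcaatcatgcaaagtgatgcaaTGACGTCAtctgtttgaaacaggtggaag
srk1, chrIII:1301801-1301927, plus strand: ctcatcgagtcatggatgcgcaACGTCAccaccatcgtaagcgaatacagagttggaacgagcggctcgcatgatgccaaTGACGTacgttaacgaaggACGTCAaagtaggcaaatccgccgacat
atf1, smp4 and atf21 hold the palindrome, wwm3 holds 1 core and srk1 holds 3 separate ones. A match is only a run of letters: pyp2, rsv2, rtc3, hsp104 and hsp16, among the largest risers, had no match to either motif in this window, which says nothing of the factors there.

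**Figure D3:**
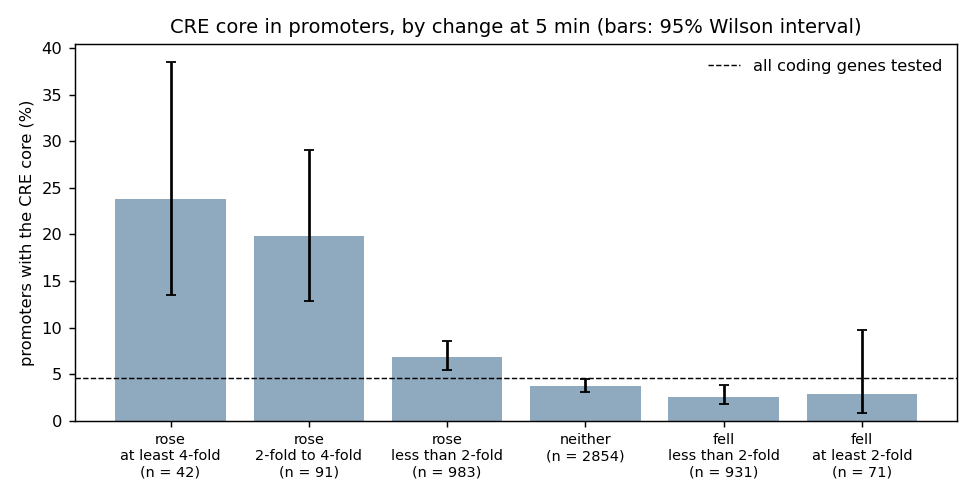
Share of coding genes with the CRE core in the 250 bases before the start (%), by the change at 5 min; bars are shares with 95% Wilson intervals that cover counting error only, and the dashed line is all coding genes tested (4.57%). The share was 23.8% for rises of at least 4-fold and 2.82% for falls of at least 2-fold.

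The Sty1 pathway changed in both directions: the phosphatase genes pyp2, pyp1, ptc1 and ptc2 and the effector kinase gene srk1 rose, and the upstream kinase genes wis1, wis4 and win1 fell. pyp2, at chromosome I, 5202366 to 5205202, plus strand, codes for a tyrosine phosphatase that inactivates Sty1. It held 14.6, 13.8 and 14.3 CPM in unheated cells, 57.4, 55.2 and 27.7 CPM at 2.5 min and 450.2, 302 and 257 CPM at 5 min, a log2 change of 4.53 ± 0.19 (edgeR adjusted p = 9.46e-17). srk1, a kinase bound and phosphorylated by Sty1, rose from 70.7, 70.3 and 75.4 to 358, 313 and 213 CPM (2.0 ± 0.13), and the phosphatases ptc1, pyp1 and ptc2 rose by 1.22 ± 0.06, 1.03 and 0.30. Heated replicate 3 was the lowest for pyp2, srk1 and ptc1. mpr1, a phosphotransfer protein upstream of the kinases, rose by 0.92 ± 0.08, and sty1 itself moved little, from 381, 385 and 365 to 481, 454 and 435 CPM (0.28 ± 0.05). Of 19 members 7 rose and 5 fell (median 0.02): the response regulator mcs4 (-0.76), the MAP kinase kinase wis1 (-0.54), wis4 (-0.30), win1 (-0.25) and the phosphatase ptc4 (-0.40) fell. The sensor kinase genes mak1 (-0.03), mak2 (-0.00) and mak3 (-0.08) did not pass the test.

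The transcription factors of this response rose with it. atf1, at chromosome II, 1546194 to 1549862, plus strand, went from 206, 223 and 212 to 633, 557 and 525 CPM (1.42 ± 0.08; edgeR adjusted p = 1.22e-13) and pcr1, at chromosome I, 4252142 to 4253622, minus strand, from 86.3, 72.8 and 56 to 331, 276 and 263 CPM (2.03 ± 0.09; 1.44e-16). hsf1 rose less, from 162, 147 and 130.4 to 258, 232 and 200.3 CPM (0.65 ± 0.06; 1.64e-10). In all 3 the groups did not overlap, and replicate 3 of hsf1 was lowest at each time. Among the factors named here rsv2 and atf21 changed most. rsv2, a zinc finger factor of stress and sporulation genes, rose from 55.4, 42.5 and 34.8 to 856, 668 and 697 CPM (4.09 ± 0.22) and atf21, a bZIP factor of the Atf1 family, from 1.53, 0.208 and 0.584 to 23.6, 15.4 and 10 CPM (4.37 ± 0.37). Of 28 stress factors 14 rose and 4 fell (median 0.31). Those that fell most were klf1 (-0.87) and mbx1 (-0.85).

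Metabolic genes of heat and osmotic protection rose in 9 of 12 cases (median 0.78). The trehalose synthesis genes tps1 and tps3 rose by 1.59 ± 0.09 and 1.83 ± 0.09, and trehalase, ntp1, which breaks the sugar down, rose from 228, 202 and 175 to 853, 738 and 664 CPM (1.90 ± 0.06). gpd1, the glycerol-3-phosphate dehydrogenase of glycerol synthesis, rose by 1.27 ± 0.09 from a mean of 1084 CPM. Among genes against peroxide 12 of 29 rose and 2 fell (median 0.13); 1 of the 12, ccp1, is annotated as a CENP-A histone chaperone. Catalase, ctt1, rose from 122, 109 and 93 to 782, 634 and 420.0 CPM (2.46 ± 0.11), sulfiredoxin, srx1, by 1.91 ± 0.11 and the glutathione peroxidase gpx1 by 1.40 ± 0.08. Heated replicate 3 was lowest for each of these 3 enzymes.

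nar1, at chromosome III, 1745896 to 1748031, minus strand, fell furthest of the genes with a mean of at least 10 CPM and groups that did not overlap. In budding yeast Nar1 takes part in cytosolic iron-sulfur assembly. The nar1 level was 48.8, 47.8 and 50.6 CPM, then 18.5, 16 and 21.7 CPM at 2.5 min and 8.82, 7.11 and 8.21 CPM at 5 min, a log2 change of -2.61 ± 0.15 (edgeR adjusted p = 3.17e-14). The F-box gene pof15 fell from 46.4, 43.8 and 37.2 to 12, 7.22 and 9.05 CPM (-2.19 ± 0.14) and the transporter gene SPCC320.08 from 232, 254 and 274 to 76.3, 66 and 98.8 CPM (-1.67 ± 0.07). dri1, an RNA-binding protein of heterochromatin assembly at chromosome I, 2009345 to 2011903, minus strand, fell from 367, 371 and 469 to 91.9, 87.3 and 167 CPM (-1.84 ± 0.08). Replicate 3 of dri1 was highest at both times, and its groups did not overlap.

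Ribosome assembly held the highest share of falls of the lists: 79 of 97 tested genes that serve ribosome biogenesis or RNA polymerase I fell and 1, the helicase dbp5, rose, with a median of -0.51. dbp3, a nucleolar RNA helicase at chromosome II, 3338604 to 3340901, plus strand, went from 328, 355 and 414 to 63.8, 67 and 131 CPM (-2.12 ± 0.11; edgeR adjusted p = 1.25e-14). Heated replicate 3 kept more than the others, and the groups did not overlap. Log2 changes were -1.63 ± 0.12 for the helicase dbp7, -1.66 ± 0.09 and -1.47 ± 0.13 for the pre-rRNA processing factors esf1 and imp4, -1.42 ± 0.12 for the rRNA methyltransferase rrp8, -1.16 ± 0.07 for noc1 and -1.19 ± 0.08 for utp22. gar2, a nucleolin, fell from 739, 744 and 1045 to 255, 255 and 474 CPM (-1.40 ± 0.09), but 72.4% of it lies under a gene of the other strand. Genes of the ribosomal proteins themselves stayed near the scaled median: 8 of 141 fell and 2 rose (median -0.05), and 1 of the 2, rpp40, matched the list by its symbol alone. rps1401 fell most, from 193, 209 and 214 to 112, 103 and 108 CPM (-0.93 ± 0.10), and is wholly under a gene of the other strand. With library totals 60 of the 141 fell, and without the replicate block 1, so no direction is given for the family. Translation factors passed in 4 of 37 cases (3 up, 1 down; median 0.05), each by less than 0.20.

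**Figure D4:**
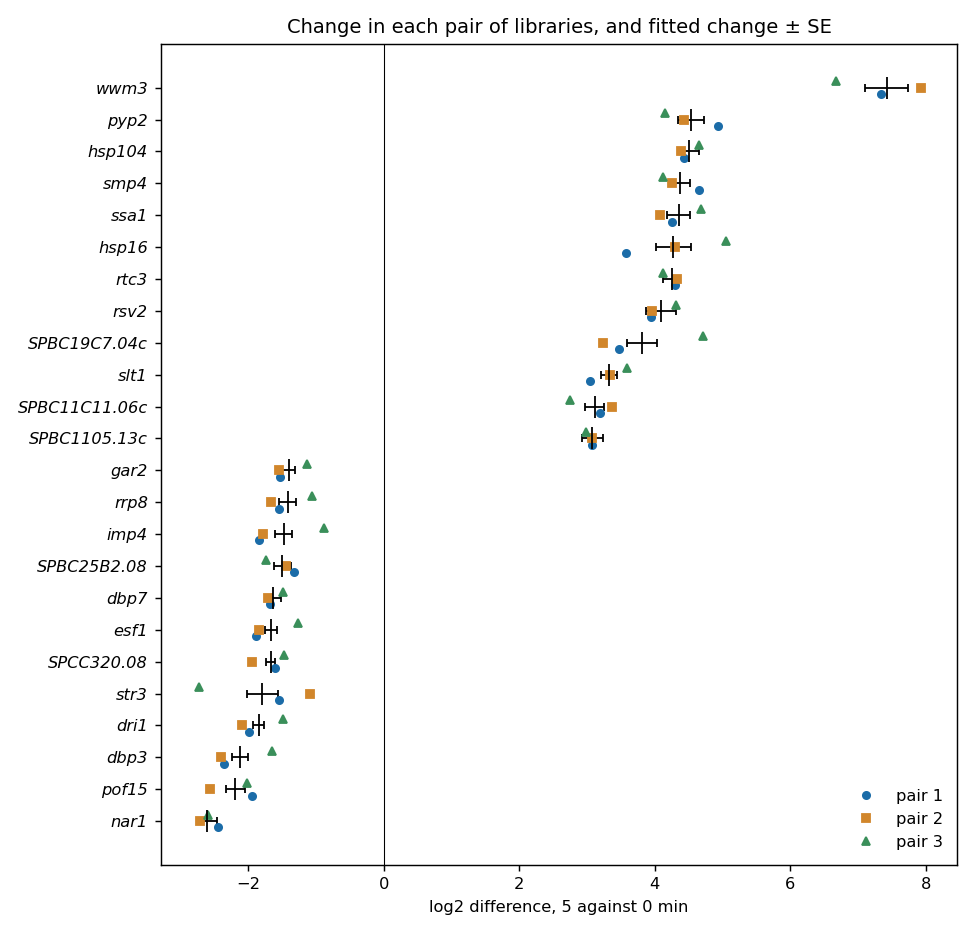
Log2 difference of 5 against 0 min in each of the 3 pairs of libraries (coloured points) and the fitted log2 change ± SE (black) for the 12 largest rises and 12 largest falls named by rule. The rule takes only genes whose groups did not overlap, so all 3 pairs share the direction of the fitted change by choice. Among the falls pair 3 lies nearest 0 for dbp3, dri1, SPCC320.08, esf1, dbp7, imp4, rrp8 and gar2. Among the rises it lies nearest 0 for wwm3, pyp2, smp4, rtc3, SPBC11C11.06c and SPBC1105.13c.

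Some genes of heterochromatin were among the fallers. Of 29 genes of heterochromatin and RNA interference 11 fell, 4 rose and 14 passed in neither direction (median -0.11). Of all genes tested 18.7% fell and 20.8% rose. After dri1, clr5 fell from 135, 134 and 123 to 65.2, 68.4 and 52.6 CPM (-1.08 ± 0.10), and the log2 changes of clr1, a subunit of the SHREC deacetylase complex, the HP1 protein gene chp2, epe1 and chp1 were -0.79 ± 0.09, -0.75 ± 0.10, -0.74 and -0.72. Core histone genes went the other way, 7 of 10 up and none down (median 0.24), from 0.22 for hhf1 to 0.42 for hhf3. hhf3 lies wholly under a gene of the other strand, and histone genes of one kind share sequence, so single copies are uncertain. With library totals 4 of 10 histone genes rose and 1 fell. Of 30 remodellers and histone chaperones 4 rose and 7 fell (median -0.04), with the remodeller fft1 down (-0.62 ± 0.08) and swr1 up (0.40 ± 0.06).

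Transporter genes changed in both directions. The siderophore transporter str3 fell from 50.8, 35.5 and 60.3 to 17.3, 16.7 and 8.93 CPM (-1.79 ± 0.23) and the iron permease fip1 from 96.9, 81.8 and 80.8 to 37.8, 43.1 and 21.5 CPM (-1.39 ± 0.16). The siderophore transporter str1 fell by 0.93 ± 0.14, and by less without unheated replicate 3 (-0.60). Replicate 3 fell furthest in str3, from the highest unheated to the lowest heated value. Over the iron list 4 rose and 4 fell of 19 (median 0.10), near the 20.8% and 18.7% of all genes tested. The phosphate transporters pho84 (-1.28 ± 0.12) and pho842 (-1.01 ± 0.10) fell, and 6 of 11 phosphate genes fell and 3 rose (median -0.23), 1 of these, pho2, by 0.16. A further phosphate transporter gene outside that list, pho841, rose from 159.5, 136 and 136 to 378, 313 and 382 CPM (1.32 ± 0.07). The zinc transporter zrt1 (-0.77 ± 0.10) and the potassium transporter trk1 (-0.80 ± 0.06) fell. The calcium pump cta3 rose from 3.98, 4.58 and 5.16 to 55.7, 27.6 and 22.9 CPM (2.89 ± 0.21) and is 76.2% under a non-coding RNA gene of the other strand; heated replicate 1 was well above the other 2. Also up was the sodium exporter sod22, by 0.77 ± 0.06 (5 up and 5 down of 14, median 0.01). The hexose transporter ght2 rose from 197, 223 and 228 to 797, 589.9 and 531 CPM (1.54 ± 0.12) and ght3 by 1.52 ± 0.15 (4 up, 2 down of 13; median 0.07). Of 19 glycolysis and fermentation genes 1 rose and 1 fell (median 0.01). None of the 10 tested genes of the mitochondrial genome passed (median -1.03), 0 of them at an unadjusted p under 0.05 and 0 in DESeq2, in libraries selected for polyadenylated RNA.

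In the other lists the changes went both ways and were mostly under 2-fold. Over all genes tested 20.8% rose and 18.7% fell, and list counts near those shares are no result about the list. Nitrogen starvation and autophagy genes rose in 16 of 33 cases and fell in 4 (median 0.17), with isp7 up by 1.12 ± 0.11, the autophagy genes atg13 and atg9 by 0.90 ± 0.09 and 0.68 ± 0.07, and the vacuolar protease isp6 by 0.82 ± 0.09. Cell wall genes rose in 10 and fell in 7 of 32 (median 0.10): the glucan-modifying enzyme gas2 rose by 0.98 ± 0.08 and the chitin synthase chs1 fell by 0.67 ± 0.10. Among mitotic regulators 8 rose and 6 fell of 26 (median 0.03), cdr1, a kinase that inhibits Wee1, up by 0.63 ± 0.08 and pom1, a kinase that inhibits Cdr2, down (-0.51 ± 0.07). Of 24 genes of MBF and the start of S phase 4 rose and 4 fell (median -0.09), with res2 up by 0.92 ± 0.11. With library totals the members that rose were 4 of the cell wall, 4 of the mitotic and 1 of the MBF genes, and without the replicate block 5 of the cell wall genes. Sterol and fatty acid genes rose in 7 and fell in 3 of 34 (median 0.08), mRNA decay genes in 9 and 5 of 34 (median 0.04), mating genes in 2 and 4 of 22 (median -0.09) and Mmi1-Red1 genes in 2 and 5 of 24 (median -0.07). ste11, the factor of mating genes, rose by 0.55 ± 0.15 with 1 heated library, replicate 3, at 111 CPM against 58.3 and 57.2 CPM, and its call was lost without that library (log2 change 0.17) or without unheated replicate 3 (0.38).

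Non-coding RNAs made up much of the strongest group by number and little by level. Of the 76 genes that rose at least 4-fold, 42 coded for protein (median 165 CPM) and 30 were long non-coding RNAs (median 1.58 CPM, 1 of them at 10 CPM or more). The filter on low counts keeps genes that reach its minimum in as few libraries as 1 group holds. Genes near silent without heat may thus have entered only through heated libraries, so these shares may depend on the filter. How many did was not counted. By the same annotation, 4972 of the 6172 genes tested coded for protein and 1083 were long non-coding RNAs. Over the wider list of 1110 tested long non-coding RNAs, 155 rose and 139 fell, with a median of -0.08. Both counts are smaller shares than the 20.8% and 18.7% of all genes tested. SPNCRNA.1435 rose from 5.71, 4.26 and 6.23 to 21.9, 21.6 and 28.9 CPM (2.16 ± 0.17) and SPNCRNA.1389 from 14.4, 15.5 and 9.16 to 34.3, 38 and 25.2 CPM (1.33 ± 0.10); both lie mostly under genes of the other strand. Of 85 annotated ones that rose at least 2-fold, 11 (12.9%) had a coding neighbour that itself rose at least 2-fold. Of the rest it was 40 of 998 (4.01%). A neighbour is a coding gene that overlaps on either strand, or that ends within 500 bases before on the same strand. Among coding genes, those that rose most seldom held an intron in their coding sequence: 2 of 42 at 4-fold or more (4.76%) and 11 of 91 between 2-fold and 4-fold (12.1%), against 2356 of 4972 tested (47.4%). Of genes that fell at least 2-fold 24 of 71 held one (33.8%).

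The 3 pairs differed in size more than in direction. Over the 227 genes that rose at least 2-fold, chosen on all 3 pairs, the median log2 difference was 1.67 in pair 1, 1.60 in pair 2 and 1.44 in pair 3. Pair 3 was nearest 0 for 129 of the 227, against 2503 of all 6172 genes tested. Over ribosome biogenesis the medians were -0.63, -0.59 and -0.30, with pair 3 nearest 0 for 83 of 97 genes. Pair 3 was not smaller throughout: for the Hsp104, Hsp78 and small heat shock protein genes the medians were 2.58, 2.86 and 3.23. In the list of nuclear envelope and stress-induced small proteins they were 2.61, 2.63 and 1.34, with rds1 at 605, 513 and 174 CPM and lsd90 at 96.3, 62.4 and 18.1 CPM in the heated replicates 1, 2 and 3. Over the 227 risers the median level was 7.62 CPM at 0 min, 11.8 CPM at 2.5 min and 27.7 CPM at 5 min. The 2.5 min mean lay between the others for 213 of the 227, against 3896 of all 6172 genes tested. Genes picked for a large change from 0 to 5 min leave more room for that. What set pair 3 apart was not tested.

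The same contrast in the RNA1 libraries, which share no library with RNA2, was larger. RNA1 had 3560 genes called (57.7%), 1815 up and 1745 down. Of the 1282 that rose in RNA2, 1132 rose in RNA1 (88.3% of RNA2's and 62.4% of RNA1's) and 10 fell there; of the 1152 that fell, 950 fell in RNA1 (82.5% and 54.4%) and 11 rose. The test of the difference between the responses called 571 genes with a higher (9.25%) and 835 with a lower change in RNA2 (13.5%). With library totals that split turned to 905 higher and 538 lower, and without the replicate block it was 150 and 424; among differences of at least 2-fold 23 were higher and 193 lower. Across the 6172 genes, which are not independent replicates, the log2 changes correlated with r = 0.81.

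**Figure D5:**
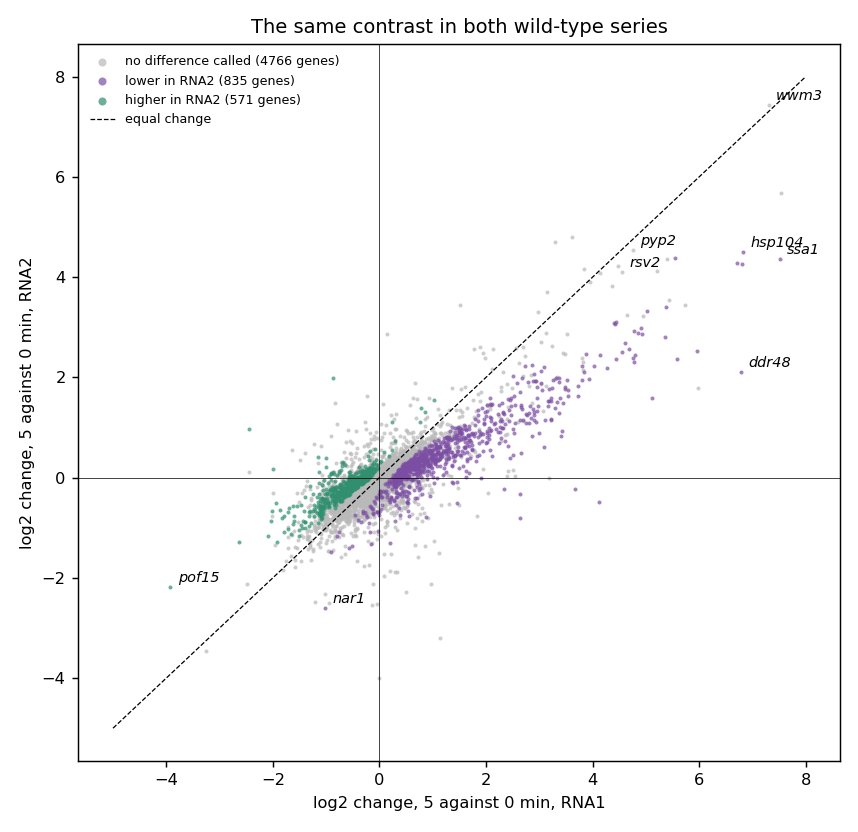
Log2 change at 5 against 0 min in RNA2 (vertical) against RNA1 (horizontal) for all 6172 tested genes; colour marks genes whose change differed between the sets at an adjusted p under 0.05, and the dashed line is equal change. Most strong risers lie under the line, ddr48 and ssa1 far under it, while wwm3 lies on it.

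Most genes picked as rising on RNA2 itself also rose less there. Of its 227 risers of at least 2-fold, 144 had a lower and 6 a higher change than in RNA1, and their median changes were 1.59 in RNA2 and 2.81 in RNA1. Both ends of the contrast moved: the RNA2 mean was the higher of the sets for 155 of the 227 at 0 min and for 26 at 5 min, against 3104 and 2918 of all 6172 genes. Of 529 genes picked on RNA1 as rising at least 2-fold, which favours RNA1, 429 rose in RNA2 and 368 had a lower change there, with median changes of 0.90 in RNA2 and 1.77 in RNA1. Of the 93 genes that fell at least 2-fold in RNA2, 10 had a lower and 11 a higher change than in RNA1, with medians of -1.19 in RNA2 and -1.17 in RNA1. Of 207 genes picked on RNA1 as falling at least 2-fold, 168 fell in RNA2, 101 had a smaller and 1 a larger fall there, and the medians were -0.76 in RNA2 and -1.16 in RNA1. In ribosome biogenesis 39 of 97 genes fell less in RNA2 and none more.

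Chaperone genes were among those with the smaller response. ssa1 stood at a mean of 169.6 CPM in unheated RNA2 and 37.2 CPM in unheated RNA1, and at 3399 and 6587 CPM after 5 min, a difference between the log2 changes of -3.15 ± 0.22 (edgeR adjusted p = 4.39e-11). The differences were -2.32 ± 0.21 for hsp104, -2.43 ± 0.36 for hsp16 and -2.47 ± 0.11 for psi1, and all 5 genes of the Hsp104 list and 9 of 15 of the Hsp70 list had a lower change in RNA2. ddr48, lsd90 and SPBC24C6.09c rose in RNA2, by 2.10 ± 0.21, 2.80 ± 0.23 and 1.59 ± 0.20, but less than in RNA1. ddr48, a stress gene wholly under a gene of the other strand, held 31.5, 31.2 and 7.73 CPM at 5 min in RNA2 and a mean of 468 CPM in RNA1 (-4.69 ± 0.33), lsd90 a mean of 58.9 and 507 CPM (-2.56 ± 0.33), and the phosphoketolase gene SPBC24C6.09c 10.5 and 131 CPM (-3.52 ± 0.29). SPBC24C6.09c too lies wholly under a gene of the other strand.

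For some risers the difference between the sets did not pass the test. It was 0.12 ± 0.64 for wwm3 (edgeR adjusted p = 0.922), -0.22 ± 0.27 for pyp2 (0.619), -0.46 ± 0.30 for rsv2 (0.31), -0.24 ± 0.33 for cta3 (0.656) and 0.03 ± 0.08 for hsf1 (0.834). A p that misses the threshold does not show equal responses. atf1 rose less in RNA2 (-1.04 ± 0.12; 1.98e-07) from a higher start, 213 against 131 CPM. Some genes fell less in RNA2: pof15 (1.73 ± 0.24), the phosphate transporter pho84 (1.35 ± 0.17), the transporter gene SPCC584.13 (1.35 ± 0.17), the nicotinic acid transporter tna1 (1.09 ± 0.23) and the glucanase gene SPBP23A10.11c (1.04 ± 0.14). nar1 fell further in RNA2, to 8.05 CPM from 49.1, against 34.8 CPM from 70.4 in RNA1 (-1.59 ± 0.19; 4.64e-07). isp7 rose by 1.12 ± 0.11 in RNA2 and by 0.24 ± 0.12 in RNA1 (0.88 ± 0.16; 2.12e-04). The labels give the sets the same strain and treatment, so the set and whatever else differed between them cannot be told apart.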

How the data were processed

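Read counts per gene were deposited by the authors for 39 mRNA-seq libraries, per the labels' protocols of polyadenylated RNA; the submitters' processing notes name Trimmomatic 0.33, STAR, Bowtie 0.12.9, bedtools 2.17.0, deepTools and the build ASM294v2, with no role. Which strand column was deposited is not given in the sources used here.

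Of 7015 gene identifiers, 6845 matched RefSeq names, and 6172 passed edgeR's filterByExpr (count minimum 10, total minimum 15). The counts were fitted in edgeR 4.0.16 (R 4.3.3) by quasi-likelihood with TMM scaling over all 39 libraries, with group means and a replicate block within each library set, which left 16 residual degrees of freedom; p-values are 2-sided and Benjamini-Hochberg adjusted over all genes tested, with calls under 0.05. SE is the log2 change divided by the root of F. It is thus approximate, and the SE of a difference between the sets need not follow from those in RNA2 and RNA1. Samples with one replicate number deviated together (correlations 0.51, 0.63 and 0.66 over 4821 genes), so the numbers pair the samples. Replicates differed beyond counting noise (chi-square per degree of freedom 8.79 to 33.5). The fit was first run on counts simulated from its own means and dispersions, with changes placed only in genes of high counts. That run checks neither the model itself nor changes at low counts.

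Promoter bases were read at the files' ASM294v2 positions from RefSeq ASM294v3; of 6845 genes in both, 99.5% share a start or end. Identity of every base between the builds was not tested. DESeq2 1.42.0 was an alternative.

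Genes are named by rule: atf1, pcr1, hsf1 and sty1, the 12 largest non-overlapping changes each way at a mean of at least 10 CPM, up to 4 called members of each of 33 lists by p, and the 6 largest differences from RNA1 each way. The members and lists were chosen with earlier results of these data known. Genes given outside the rule were chosen after their values were seen: ssa2, xdj1, ppt1, ubi4, pyp1, ptc2, mak1, mak2, mak3, pho841, mcs4, wis1, wis4, win1, ptc4, klf1, mbx1, epe1, chp1, rpp40, dbp5, ccp1, pho2, rds1, hhf1, atf21 and SPBC1683.04.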

Additional observations from a re-analysis of the deposited data

Results flagged for a closer look

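The response to 5 min of heat differed between the RNA2 and RNA1 libraries of WT by edgeR's test of the difference itself, with 571 genes higher and 835 lower in RNA2. Each value here is the log2 change in RNA2 minus that in RNA1.

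Genes that rose less in RNA2 were ddr48 (-4.69), SPBC24C6.09c (-3.52), ssa1 (-3.15), lsd90 (-2.56), rtc3 (-2.54), ssd2 (-2.48), hsp16 (-2.43), hsp104 (-2.32), slt1 (-1.70), SPBC1105.13c (-1.33), SPBC11C11.06c (-1.32), smp4 (-1.16), atf1 (-1.04) and pcr1 (-0.47). The difference of smp4 missed the threshold without the replicate block (adjusted p = 0.0686 in edgeR). nar1 (-1.59) and SPBC25B2.08 (-0.58) fell further in RNA2.

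Genes whose change was higher in RNA2 were pof15 (1.73), pho84 (1.35), SPCC584.13 (1.35), tna1 (1.09), SPBP23A10.11c (1.04) and tti2 (1.04). Groups of 3 libraries are too small for a test of single outlying libraries, and none was made.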

How the results depend on the processing

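With library totals in place of TMM, 759 genes were higher and 1754 lower at 5 min, and of the differences from RNA1 905 were higher and 538 lower. At a change of at least 2-fold, 320 genes remained past both limits, 227 higher and 93 lower, and 216 differences, 23 higher and 193 lower. Without the replicate block 1678 genes changed, 873 higher and 805 lower, and 574 differed between the sets, 150 higher and 424 lower. Leaving out 1 library at a time gave 1953 to 2211 genes changed, 1028 to 1168 higher and 925 to 1076 lower, and 1066 to 1356 differences, 415 to 553 higher and 651 to 803 lower. DESeq2 called 2301, no filter on low counts 2387, the RNA2 libraries alone 2247 and the 0 and 5 min libraries alone 2092. No named gene turned its direction past the threshold under these settings. With the 50 bases after the start included, the CRE core was in 33.3% of rises of at least 4-fold. Of 72 counts and shares, most of them lists' calls, 35 moved by over 1.5 times with library totals and 25 without the replicate block. The cause of these shifts was not tested. Of the 30 long non-coding RNAs that rose at least 4-fold, 1 had a mean of at least 10 CPM, so the values of the others rest on few counts in libraries of 8714493 to 10228142; calls were not tested against depth.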
